A study of Homo sapiens with 16 samples.

Results

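The cytosolic ribosomal protein genes encode the protein part of the 40S and 60S subunits of the ribosome. They were taken from the count table by name: protein-coding genes whose symbol is RPL or RPS with a number, plus RPSA, RPLP0, RPLP1, RPLP2 and RPL4, without Y-linked genes and without paralogs that carry an L after the number. This gave 77 of the 66023 genes in the table, of which 31 belong to the 40S subunit, 43 to the 60S subunit and 3 to the stalk of the 60S subunit (RPLP0, RPLP1 and RPLP2). They lie on 21 chromosomes.

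RNA was sequenced from SW480, a human colon adenocarcinoma cell line, in 6 lines and 16 samples, to ask how the transcriptome follows the amount of the LIM domain protein Ajuba. Parental cells carried no construct (n = 2). The shScrambled line carried the pLKO.1-puro vector with a hairpin that matches no mammalian transcript (n = 2), shAjuba1 a hairpin against the coding region of the AJUBA mRNA (n = 3) and shAjuba2 a hairpin against a non-coding region (n = 3). The Ajuba OE line expressed tagged Ajuba from a lentiviral CMV promoter (n = 3), and its Control line carried the same construct with the Ajuba sequence cut out (n = 3). All lines except Parental had been selected with puromycin, so every comparison with Parental holds the transduction and the selection as well as the construct. The labels do not say whether replicates were separate cultures, and the paper calls the replicates of each line technical. The p-values below then measure only the spread between these samples.

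Each library held between 30132396 and 69684675 counts. AJUBA itself lay at 83.4 and 81.6 RPM (counts scaled to a library total of 1000000) in shScrambled, at 49.6, 47.3 and 53.5 in shAjuba1 and at 60.3, 68.6 and 57.1 in shAjuba2. It lay at 89.6, 100.5 and 89.4 RPM in Control and at 549.7, 461.8 and 566.2 RPM in Ajuba OE. The log2 fold change was -0.73 (SE 0.08, adjusted p = 2.19e-05) in shAjuba1, -0.46 (SE 0.13, adjusted p = 0.0773) in shAjuba2 and 2.56 (SE 0.11, adjusted p = 7.69e-05) in Ajuba OE, so the fall in shAjuba2 did not pass the threshold. Of 6 epithelial markers, KRT8 and KRT18 reached at least 1487 and 1152 RPM in every sample and CDH1 3.92 to 36.2 RPM. The summed level of 8 markers of fibroblasts, leukocytes and endothelium was 12.9 to 30.6 RPM, with COL1A1 at 5.71 to 26.4 RPM, PTPRC at no more than 3 counts and DCN at no more than 1 count in any library.

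A ribosome contains one copy of nearly every ribosomal protein, with the stalk as the main exception, and the cell makes these proteins in matched amounts. Their mRNAs are short, abundant and stable, and most of them begin with a C followed by an unbroken run of pyrimidines, the 5′ terminal oligopyrimidine (TOP) tract, through which mTOR and LARP1 control their translation and their stability. RPS6 is the ribosomal protein that S6 kinase phosphorylates downstream of mTOR, and its phosphorylated form serves as a common readout of that pathway, also in colon cancer cells.

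The starts of these transcripts are shown because the tract is the sequence feature that the family is best known for. RefSeq promoters (GRCh38.p14) were at hand for 62 of the 77 genes, and 26 of the 62 starts lay within 5 bases of the gene start in GENCODE, so a window may miss the start that these cells used. Each window has 10 bases before the RefSeq start and 20 bases from it, on the strand of the gene, and capitals mark a tract of a C at the start followed by at least 4 pyrimidines (C or T). RPS6, RPS3A, RPL41 and RPS18 are the members with the lowest values in replicate 2 relative to the other replicates of 3 lines below, RPL28 and RPL36A are at the other end, and RPL4 and RPL15 are the ones with the smallest adjusted p in shAjuba1.
RPS6, chr9:19380217-19380246, minus strand: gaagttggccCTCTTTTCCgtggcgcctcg
RPS3A, chr4:151099618-151099647, plus strand: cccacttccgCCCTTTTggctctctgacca
RPL41, chr12:56116623-56116652, plus strand: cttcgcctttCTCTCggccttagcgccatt
RPS18, chr6:33272065-33272094, plus strand: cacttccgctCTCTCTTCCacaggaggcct
RPL28, chr19:55385922-55385951, plus strand: cctcgccttcCTCTTTCCgtctcaggtcgc
RPL36A, chrX:101391001-101391030, plus strand: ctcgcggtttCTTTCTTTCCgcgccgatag
RPL4, chr15:66504836-66504865, minus strand: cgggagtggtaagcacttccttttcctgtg
RPL15, chr3:23916535-23916564, plus strand: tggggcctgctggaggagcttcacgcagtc
A tract stood exactly at the RefSeq start of 42 of the 62 members (67.7%), against 4.04% of the 27305 promoters in the table. The windows of RPL4 and RPL15 hold none at that start. The core of the ETS factor motif, CGGAAG on either strand, occurred within the 300 bases of 39 of the 62 promoters (62.9%), against 19.9% of all promoters. A match to these letters is a description and not a site in use.

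Every member was read deeply. A single member had between 884 and about 103300 counts in a library, and all 77 passed the filter on low counts in every comparison. Mean levels over the 16 samples ran from 38.1 RPM for RPL36A to 1066 RPM for RPL10, the 60S protein that completes the peptidyl transferase centre late in assembly, with a median of 380.3 RPM. Per kilobase of coding length RPL41, which encodes a very short basic peptide, stood first at 9252 RPM per kb, followed by RPL37A at 2047, RPL39 at 1863, RPL23 at 1843 and RPL10 at 1661 RPM per kb. The lowest were RPL17 at 76.8, RPS10 at 77.6 and RPL36A at 119.8 RPM per kb. These 3 genes share more than 20% of their exon bases with a gene on the same strand (96.9% for RPL17, 84% for RPS10 and 43.8% for RPL36A), as does RPL26 (65.3%), and reads in shared exons can be lost in counting, so their levels are uncertain. Exons of 14 members overlap a gene on the opposite strand, among them RPL10 (53.7%), RPS3A (24.1%) and RPS6 (20.6%), and it is not stated whether strand was used in counting.

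The 77 genes together took 3.67% and 4.04% of all counts in Parental (3.86% ± 0.262, SD, n = 2) and 3.39% and 3.04% in shScrambled (3.21% ± 0.244, n = 2). They took 2.99%, 3.06% and 3.23% in shAjuba1 (3.09% ± 0.125, n = 3) and 2.78%, 1.36% and 3.32% in shAjuba2 (2.49% ± 1.01, n = 3). The values were 3.31%, 1.79% and 3.06% in Control (2.72% ± 0.816, n = 3) and 4.55%, 2.26% and 3.37% in Ajuba OE (3.39% ± 1.15, n = 3). Parental lay above every sample of the other lines except replicate 1 of Ajuba OE, and all other pairs of lines overlapped. The highest sample, replicate 1 of Ajuba OE, held 3.33 times the share of the lowest, replicate 2 of shAjuba2. In bulk RNA, fewer cells with a high level and less of these mRNAs per cell cannot be told apart.

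**Figure D1:**
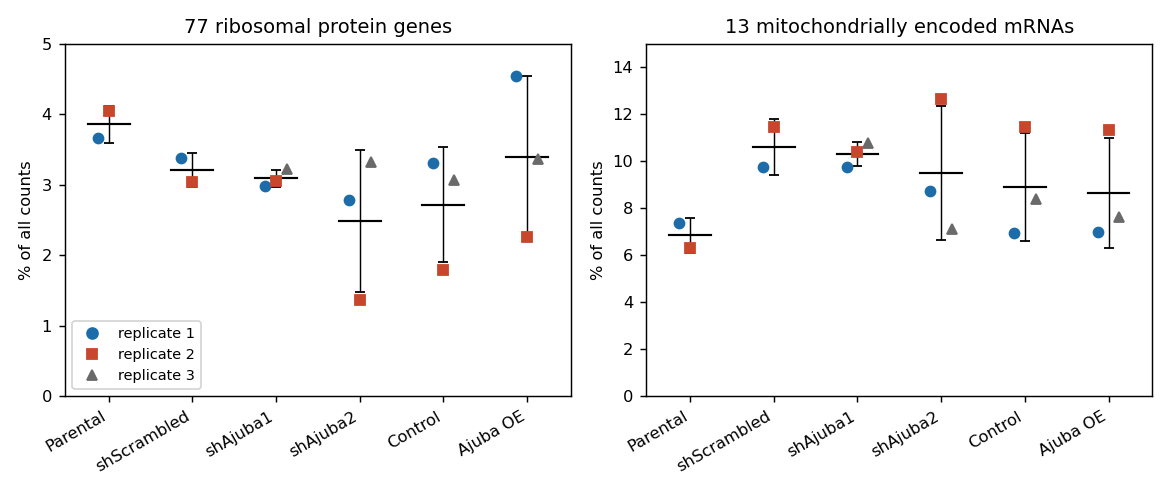
Share of all counts (%, vertical axes) taken by the 77 ribosomal protein genes (left) and by the 13 mitochondrially encoded mRNAs (right) in each of 16 samples, with the line mean and SD in black and symbols by replicate number. Replicate 2 of shAjuba2, Control and Ajuba OE had the lowest ribosomal protein share of its line (1.36%, 1.79% and 2.26%) and the highest mitochondrial share (12.65%, 11.45% and 11.32%).

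By mean RPM, Parental was the highest of the 6 lines in 71 of the 77 genes. shAjuba2 was the lowest in 61 and Control in 12. In the order of the mean summed shares, Parental was followed by Ajuba OE, shScrambled, shAjuba1, Control and shAjuba2, and each neighbouring pair in that order overlapped. Without replicate 2 of each line Ajuba OE (39610 RPM) stood above Parental (36720 RPM) and Control (31850 RPM) above shAjuba1 (31090 RPM), so this order rests on replicate 2. Parental was then a single sample that lay between the remaining Ajuba OE samples, and the samples of Control and shAjuba1 overlapped. The ratio of 40S to 60S counts ran from 0.485 in replicate 2 of shAjuba2 to 0.594 in replicate 2 of Parental.

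**Figure D2:**
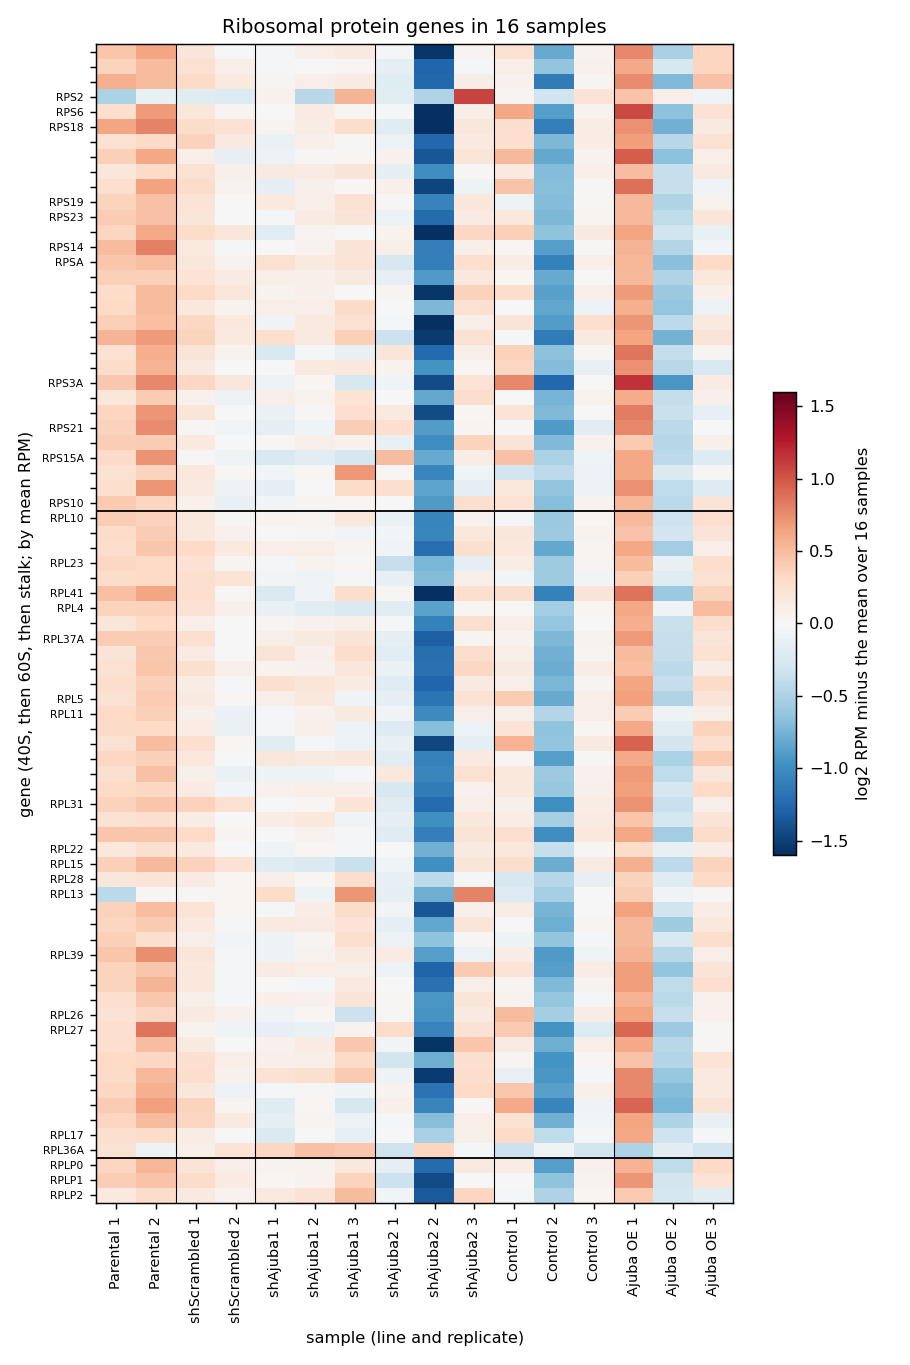
Log2 RPM of each of the 77 genes (rows, 40S, 60S and stalk, by mean level within each, a few of them labelled) in the 16 samples (columns, by line), as the difference from the mean of the gene over all samples. The columns of replicate 2 of shAjuba2, Control and Ajuba OE are low over almost the whole height, and RPL36A and RPS2 are the 2 rows that were not below both other replicates in all 3 of these lines.

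The largest movement of the family lay between replicates of one line rather than between lines. Replicate 2 was below both other replicates in 76 of the 77 genes for shAjuba2 (against 42.3% of all genes), in 76 for Control (against 37.1%) and in 75 for Ajuba OE (against 40.5%). The same held for 75 genes in all 3 lines, with RPL36A and RPS2 as the exceptions. In shAjuba1 only 18 members had replicate 2 lowest, against 35.9% of all genes. With 2 replicates each, replicate 2 was below replicate 1 in 7 members in Parental (50.9% of all genes) and in 75 in shScrambled (50.5% of all genes), there by a small step. The median log2 difference of replicate 2 from the mean of the others was -1.17 for shAjuba2, -0.83 for Control and -0.77 for Ajuba OE, but -0.01 in shAjuba1, -0.16 in shScrambled and 0.14 in Parental.

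Both subunits were lower in these samples, and the 40S median was somewhat below the 60S median in each line. The 40S, 60S and stalk medians were -1.20, -1.10 and -1.26 for shAjuba2, -0.84, -0.80 and -0.67 for Control and -0.80, -0.76 and -0.76 for Ajuba OE. The ratio of 40S to 60S counts was the lowest of its line in replicate 2 of shAjuba2 (0.485 against 0.570 and 0.566), Control (0.514 against 0.584 and 0.552) and Ajuba OE (0.505 against 0.589 and 0.518). Averaged over the 3 lines, RPS3A had the lowest difference (-1.57), followed by RPL41 (-1.47), RPS6 (-1.46) and RPS18 (-1.42). At the other end stood RPL36A (0.34), RPL28 (-0.37), RPS2 (-0.50), RPL22 (-0.54) and RPL23 (-0.54), so RPL36A was the one member that was higher. RPS3A lay at 361.1, 88.6 and 213.1 RPM in Control and at 471.8, 110.6 and 232 in Ajuba OE. RPL28 lay at 270.5, 236.8 and 295.2 RPM in Control and at 413.2, 283.4 and 401.1 in Ajuba OE, so the middle replicate was the lowest again but by a far smaller step.

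The size of the difference ranked the members alike in the 3 lines. Over the 77 genes the shifts of Control and Ajuba OE had a Spearman correlation of 0.827, those of shAjuba2 and Control 0.58 and those of shAjuba2 and Ajuba OE 0.541. With shAjuba1 the values were -0.02 for shAjuba2, -0.26 for Control and -0.09 for Ajuba OE. These describe genes that were read in the same libraries and are not independent. The mean shift of a gene was related weakly to the length of its canonical transcript (Spearman 0.27, n = 77) and hardly to its coding length (-0.04) or mean level (-0.07). The median mean shift was -0.94 over the 42 members with a TOP tract at the RefSeq start and -0.81 over the 20 without one. The ranges overlapped (-1.57 to 0.34 and -1.27 to -0.57). Some of the 20, such as RPL4, hold a pyrimidine run further into the window. The split may therefore not separate TOP mRNAs from others.

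**Figure D3:**
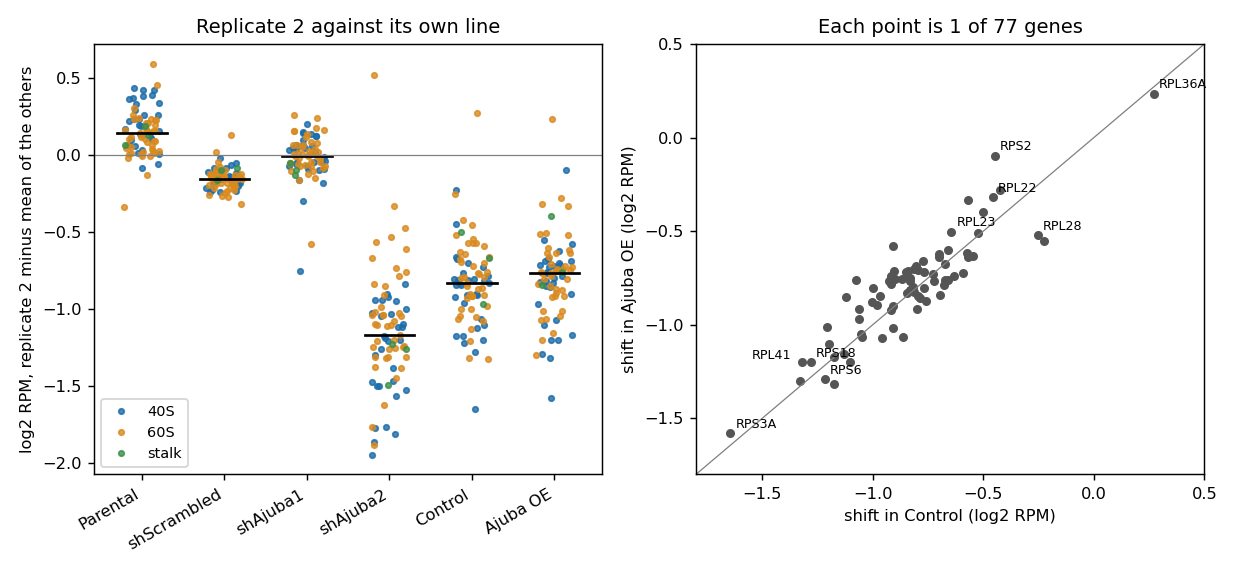
Left, difference in log2 RPM between replicate 2 and the mean of the other replicates of its line (vertical axis) for each of the 77 genes in each of the 6 lines, coloured by subunit, with the median as a bar (-1.17 for shAjuba2, -0.83 for Control, -0.77 for Ajuba OE). Right, the same difference in Ajuba OE against that in Control, one point per gene with the line of equality, where RPS3A is at the lower end and RPL36A alone lies above 0 on both axes.

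Other gene groups moved in the same 3 libraries. The median shift in shAjuba2, Control and Ajuba OE was -0.68, -0.53 and -0.54 for other TOP mRNAs, -0.72, -0.58 and -0.54 for mitochondrial ribosomal proteins, -0.85, -0.70 and -0.63 for nuclear-encoded subunits of the respiratory chain and ATP synthase, and -0.64, -0.58 and -0.54 for proteasome subunits. The 13 mitochondrially encoded mRNAs shifted the other way, by 0.67, 0.66 and 0.73, and the nuclear-retained RNAs (MALAT1, NEAT1 and similar transcripts) by 0.64, 0.33 and 0.43. The medians were closer to 0 for RNA polymerase I subunits (-0.14, -0.18 and -0.26), genes of the S6 kinase and mTOR pathway (-0.05, -0.04 and -0.07) and snoRNA host transcripts (0.07, 0.05 and -0.03). The part of the mitochondrial and the nuclear-retained RNAs in the ribosomal protein shift was not tested. No pair of replicates of a line agreed within sampling noise, with a chi-square per member of 49.5 to 5741 over the 14 pairs when scaled by library total and of 14.6 to 487 when scaled by the family total.

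Replicates 1 and 3 of Ajuba OE also differed, and 76 of 77 genes were lower in replicate 3, by a median of -0.47 on the log2 scale. In shAjuba1 the 3 replicates stayed close, between 2.99% and 3.23% of all counts.

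RPS6 followed the family. Its gene lies at chr9:19375715-19380236 on the minus strand (GRCh38, 6 exons). It lay at 619 and 827 RPM in Parental and at 585 and 531 RPM in shScrambled. In shAjuba1 it lay at 517, 567 and 526 RPM and in shAjuba2 at 503, 145 and 555 RPM. In Control it lay at 791, 280 and 535 RPM and in Ajuba OE at 1069, 329 and 605 RPM. The lowest value of each of the last 3 lines was again replicate 2, and the ranges of Control and Ajuba OE overlapped. The log2 fold change of RPS6 was -0.07 (SE 0.09, adjusted p = 0.572) in shAjuba1, -0.53 (SE 0.46, adjusted p = 0.505) in shAjuba2 and 0.36 (SE 0.46, adjusted p = 0.745) in Ajuba OE. None passed the threshold in these fits. Against Parental, RPS6 was lower in shAjuba1 (-0.46, adjusted p = 0.00806). RPS6 fell in shScrambled against Parental in edgeR (-0.38, SE 0.10, adjusted p = 0.00666). This call was lost with DESeq2 (adjusted p = 0.201), with all 16 samples in 1 fit (adjusted p = 0.723), without replicate 2 of Parental (-0.15, adjusted p = 0.406) and without replicate 2 of shScrambled (-0.31, adjusted p = 0.109), and the value was -0.58 without replicate 1 of Parental.

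In the shAjuba1 line a small group of members was lower than in shScrambled, while the family had a median near 0. Of the 77 genes 11 fell, 7 of the 60S and 4 of the 40S subunit, and none rose (edgeR, adjusted p under 0.05), where 38.4% of all 21082 genes tested changed and 20.2% fell, so the 11 of 77 (14.3%) were a smaller share than over all genes. The median log2 fold change was -0.04, against -0.01 over all genes tested. RPL15, a 60S protein close to the centre of the subunit, lay at 435 and 396.9 RPM in shScrambled and at 294, 288.2 and 263.3 in shAjuba1, with no overlap between the groups (-0.58, SE 0.09, adjusted p = 0.000259). RPL4, which lines the exit tunnel for the nascent chain, lay at 753.7 and 678.9 against 591.2, 571.3 and 546.3 RPM (-0.35, SE 0.09, adjusted p = 0.00859). RPS3A lay at 266.2 and 238.9 against 198.8, 216.2 and 177.5 RPM (-0.37, SE 0.10, adjusted p = 0.0102). All 3 genes were lower in every shAjuba1 sample than in either shScrambled sample. The same held for 19 of the 77 members and for 6709 of 23597 genes. Among the others that fell were RPL3, RPL34, RPL9, RPS20, RPS25, RPL21 and RPL31, with log2 fold changes from -0.35 to -0.25, and they are named here after their values were seen.

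At the upper end of this comparison were RPS2 (0.30, SE 0.19), RPL13 (0.30, SE 0.16), RPL36A (0.24, SE 0.09) and RPLP2 (0.19, SE 0.10), with adjusted p of 0.24, 0.164, 0.0521 and 0.166. RPS2 was scattered, at 506.9 and 500.5 RPM in shScrambled and at 609.1, 427.5 and 851.3 RPM in shAjuba1. RPL36A was less so, at 39.6 and 43.4 against 46.8, 51.4 and 50.4 RPM, and it was called higher when libraries were scaled by their totals or by DESeq2 size factors. Some members named for a known role had values near 0. These were RPL5 (-0.03, SE 0.10) and RPL11 (0.06, SE 0.09), which bind MDM2 when assembly fails, and RPSA (0.07, SE 0.08), which is also known as a laminin receptor. RPS19 (0.05, SE 0.09), mutated in Diamond-Blackfan anaemia, was similar. None of these 4 passed the threshold.

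The number of members called rested on single libraries. It was 1 without replicate 1 of shScrambled (20.8% of all genes called, family median 0.07), 4 without replicate 1 of shAjuba1 (31.4%) and 17 without replicate 3 of shAjuba1 (45.4%). With replicate 2 of every line left out and the remaining 10 samples in 1 fit, RPL15 and RPL4 were the 2 members called (19.7% of all genes). With all 16 samples in 1 fit, which share one estimate of the spread, none was called, nor did any have an unadjusted p under 0.05.

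In shAjuba2 most members had lower values than in shScrambled, but the replicates spread widely. The 77 genes had a median log2 fold change of -0.42 against shScrambled, with 74 of them negative, and no member passed the threshold in edgeR, where 7.63% of all 22446 genes did. At an unadjusted p under 0.05 there were 2 members, and DESeq2 called 1. Among the lowest were RPLP1 (-0.74, SE 0.34), an acidic protein of the stalk, RPL31 (-0.71, SE 0.32) and RPS18 (-0.71, SE 0.45), with adjusted p of 0.208 to 0.36. RPLP1 lay at 583.5 and 520.5 RPM in shScrambled and at 372, 176.1 and 478 in shAjuba2. All 3 shAjuba2 samples were lower, with replicate 2 the lowest, as in 14 of the 77 members and 4641 of 23597 genes whose groups did not overlap in this direction. The highest were RPS2 (0.47, SE 0.42), RPL13 (0.02, SE 0.38), RPS15A (0.01, SE 0.31) and RPL27 (-0.11, SE 0.34). RPS2 lay at 515.6, 415.9 and 1236 RPM in shAjuba2, on both sides of the shScrambled values.

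Without replicate 2 of shAjuba2 the median came to -0.13 (-0.67 without its replicate 3) and 7 members were called, 6 lower and 1 higher (22.7% of all genes). With replicate 2 of every line left out, in a fit of all 6 lines, RPL23, a 60S protein of the subunit interface, was the member called (-0.55, SE 0.14, adjusted p = 0.0328), where 8.55% of all genes were. RPL23 lay at 888.5 and 783 RPM in shScrambled and at 587.5, 455.4 and 682 RPM in shAjuba2, so its groups did not overlap with or without the second replicate. RPL15 (-0.56, SE 0.29, adjusted p = 0.264) and RPL4 (-0.50, SE 0.24, adjusted p = 0.231), which fell in shAjuba1, had values of similar size here but did not pass. Both knockdown lines were set against the same 2 shScrambled samples.

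Set directly against each other, shAjuba1 was above shAjuba2 by a median of 0.35, and 74 of 77 genes were positive, but no member passed the threshold in edgeR, where 19.6% of all genes did. There were 6 members at an unadjusted p under 0.05, and DESeq2 called 1. Without replicate 2 of shAjuba2 the median was 0.07 with 4 members called (26.9% of all genes), and without its replicate 3 it was 0.60 with 17 called (21.5%). RPL15 differed by 0.00 (SE 0.24, adjusted p = 0.999) between the hairpins.

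In Ajuba OE nearly the whole family had higher values than in Control, by less than the replicates spread. Ajuba OE was above Control in 76 of 77 genes, by a median of 0.35 on the log2 scale, and no member passed the threshold in edgeR, where 5.43% of all 21140 genes did. There were 4 members at an unadjusted p under 0.05, and DESeq2 called 0 (8.34% of all genes). Among the highest were RPL4 (0.59, SE 0.21) and RPS21 (0.55, SE 0.32). RPL4 lay at 639.4, 436.1 and 657.5 RPM in Control and at 982.9, 614.5 and 905.1 RPM in Ajuba OE. Among the lowest were RPL36A (-0.02, SE 0.14), RPS15A (0.11, SE 0.31) and RPL26 (0.13, SE 0.30). The median was 0.12 without replicate 1 of Ajuba OE, 0.12 without replicate 2 of Control, 0.59 without replicate 2 of Ajuba OE and 0.53 without replicate 1 of Control. In no member did all 3 Ajuba OE samples lie above all 3 Control samples (7.63% of all genes).

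With replicate 2 of every line left out and the other 10 samples in 1 fit the median was 0.37 and 11 members rose, where 8.3% of all genes changed in either direction. The fit of all 16 samples, which has the same form, called 1 member, with a median of 0.37. RPL28 (0.58, SE 0.11, adjusted p = 0.00392) and RPL4 (0.60, SE 0.11, adjusted p = 0.0054) came first. RPL29, RPL37, RPL32, RPS4X, RPL10, RPL3 and RPL7 were also among them, named after their values were seen, and 41 members had an unadjusted p under 0.05. RPS6 was not among them (0.39, SE 0.22, adjusted p = 0.329). Leaving out replicate 2 of Ajuba OE alone gave 1 member called (4.57% of all genes), and the low replicate 2 of Control then stayed in. Against Parental in place of Control the median was -0.17 with no member called in edgeR and 1 at an unadjusted p under 0.05. Without replicate 2 the summed level was 39610 RPM in Ajuba OE and 36720 RPM in Parental, the other way round. Parental was then 1 sample, which lay between replicates 1 and 3 of Ajuba OE (45480 and 33740 RPM).

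**Figure D4:**
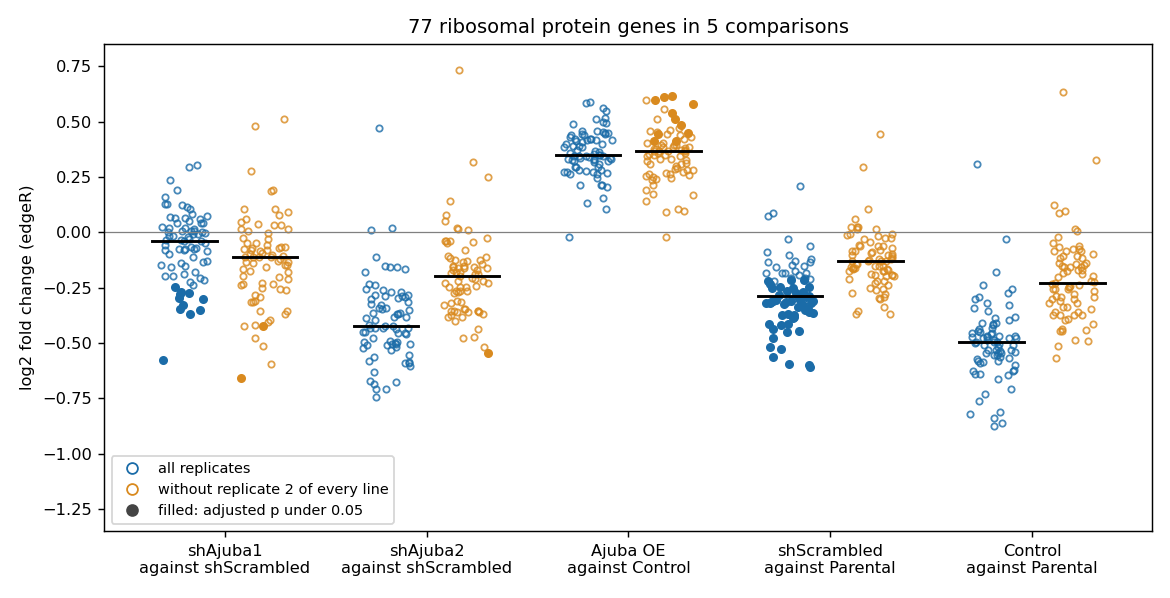
Log2 fold change (edgeR, vertical axis) of each of the 77 genes in 5 comparisons, with all replicates in a fit of the lines compared (blue) and with replicate 2 of every line left out in a fit of all 6 lines (orange), bars at the medians and filled points where the adjusted p was under 0.05. The Ajuba OE median was 0.35 and 0.37 in the respective fits with 0 and 11 members called, and the shScrambled against Parental median was -0.29 with 53 called in the fit of these lines alone. The fit without replicate 2 also holds all 6 lines and called 0 members there, as did the fit of all 16 samples.

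Among the comparisons with each line's own control and between the controls, shScrambled against Parental had the most members called. Against Parental, shScrambled was lower in 53 of the 77 genes and higher in none, where 30.7% of all 21289 genes changed and 15.6% fell. The median was -0.29, against 0.03 over all genes tested. The 53 were 26 of 31 genes of the 40S subunit, 26 of 43 of the 60S subunit and 1 of 3 of the stalk, RPLP0 (-0.29, SE 0.09, adjusted p = 0.0138). RPS14, which is needed for the maturation of the small subunit, lay at 534.1 and 654.6 RPM in Parental and at 415.5 and 368.3 RPM in shScrambled (-0.61, SE 0.09, adjusted p = 2.9e-05). RPL27 lay at 271.5 and 409.2 against 235.4 and 216 RPM (-0.60, SE 0.12, adjusted p = 0.000451). RPS21 (-0.59, SE 0.10) and RPS15A (-0.56, SE 0.10) followed. The 3 members with a positive value were RPL13 (0.21, SE 0.10, adjusted p = 0.126), RPS2 (0.09, SE 0.10) and RPL36A (0.07, SE 0.09).

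In 67 members both shScrambled samples lay below both Parental samples (29.7% of all genes). DESeq2 called 49 (21.6% of all genes), of which 45 were among the 53. With 2 samples on each side the number depended on single libraries: 16 without replicate 2 of Parental (18.0% of all genes) and 12 without replicate 2 of shScrambled (14.0%). With all 16 samples in 1 fit no member was called, nor with replicate 2 of every line left out, which leaves 1 sample on each side, and in both fits none had an unadjusted p under 0.05. The mitochondrially encoded mRNAs were at 7.39% and 6.33% of counts in Parental and at 9.76% and 11.45% in shScrambled, and all 13 of them rose. Their part in the lower ribosomal protein shares was not tested.

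Control, the other transduced line without added Ajuba, was also below Parental. The median was -0.50 and 76 of 77 genes were negative, and no member passed the threshold in edgeR, where 0.37% of all 21644 genes did. There were 25 members at an unadjusted p under 0.05, and DESeq2 called 3. All 3 Control samples lay below both Parental samples in 57 members (20.7% of all genes). Without replicate 2 of Control the median was -0.27 and 21 members fell (4.73% of all genes). RPS14 lay at 381.3, 203.1 and 380.3 RPM in Control, and thus below the lower Parental value of 534.1 RPM in every sample (-0.87, SE 0.27, adjusted p = 0.168). The Parental samples are shared by both comparisons.

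Over the 6 lines together 4 members differed, where 45.7% of all 23597 genes did. They were RPL28 (adjusted p = 0.0159), RPL23 (adjusted p = 0.0232), RPL36A (adjusted p = 0.0242) and RPL4 (adjusted p = 0.0247). RPL28, RPL36A and RPL23 are among the members that differed least in replicate 2. RPL23 had a mean of 945 RPM in Parental and of 575 RPM in shAjuba2. DESeq2 called 6. With replicate 2 of every line left out 24 members differed (41.7% of all genes), RPL4 with the smallest adjusted p (0.000624).

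Scaling each library to its own sum of ribosomal protein counts shows how the makeup of the family varied once its total is set aside. The SD over the 16 samples of the log2 share was under 0.15 in 35 members, and was lowest in RPS23, a protein of the decoding centre (0.0595). It was above 0.3 in 4 members, RPL36A (0.594), RPS2 (0.478), RPL13 (0.372) and RPS3A (0.332). RPS2 made up 1.12% and 1.32% of ribosomal protein counts in Parental, 1.5% and 1.65% in shScrambled, 2.04%, 1.4% and 2.63% in shAjuba1 and 1.85%, 3.05% and 3.72% in shAjuba2. It made up 1.82%, 2.61% and 2.21% in Control and 1.75%, 2.77% and 1.66% in Ajuba OE. Parental was thus below every other sample. RPL13 was also lowest in Parental, at 0.627% and 0.78%, and reached 1.57% in shAjuba1 and 1.62% in shAjuba2.

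In shAjuba1 against shScrambled 6 members differed relative to the family total (36.3% of all genes did on this scale). RPL15 (-0.50, SE 0.11, adjusted p = 0.00014), RPS3A (-0.29, SE 0.11, adjusted p = 0.0293) and RPL4 (-0.27, SE 0.11, adjusted p = 0.0391) were lower, as was RPL9 (adjusted p = 0.0444). RPL13 (0.36, SE 0.12, adjusted p = 0.0175) and RPS2 (0.37, SE 0.13, adjusted p = 0.0243) were higher. Both calls were lost with DESeq2 (adjusted p of 0.0741 for RPL13 and 0.448 for RPS2) and without replicate 3 of shAjuba1, where the values were 0.18 and 0.13, and in replicate 2 of shAjuba1 the share of RPS2 lay below both shScrambled samples. Without replicate 2 of shAjuba1 they were 0.52 and 0.57. RPL15 made up 1.28% and 1.3% of ribosomal protein counts in shScrambled and 0.984%, 0.942% and 0.815% in shAjuba1, below every other sample of the series. Without replicate 1 of shScrambled RPL15 alone was called (19.7% of all genes), without its replicate 2 there were 2 members (25.6%), and with replicate 2 of every line left out there were none and 3 at an unadjusted p under 0.05.

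**Figure D5:**
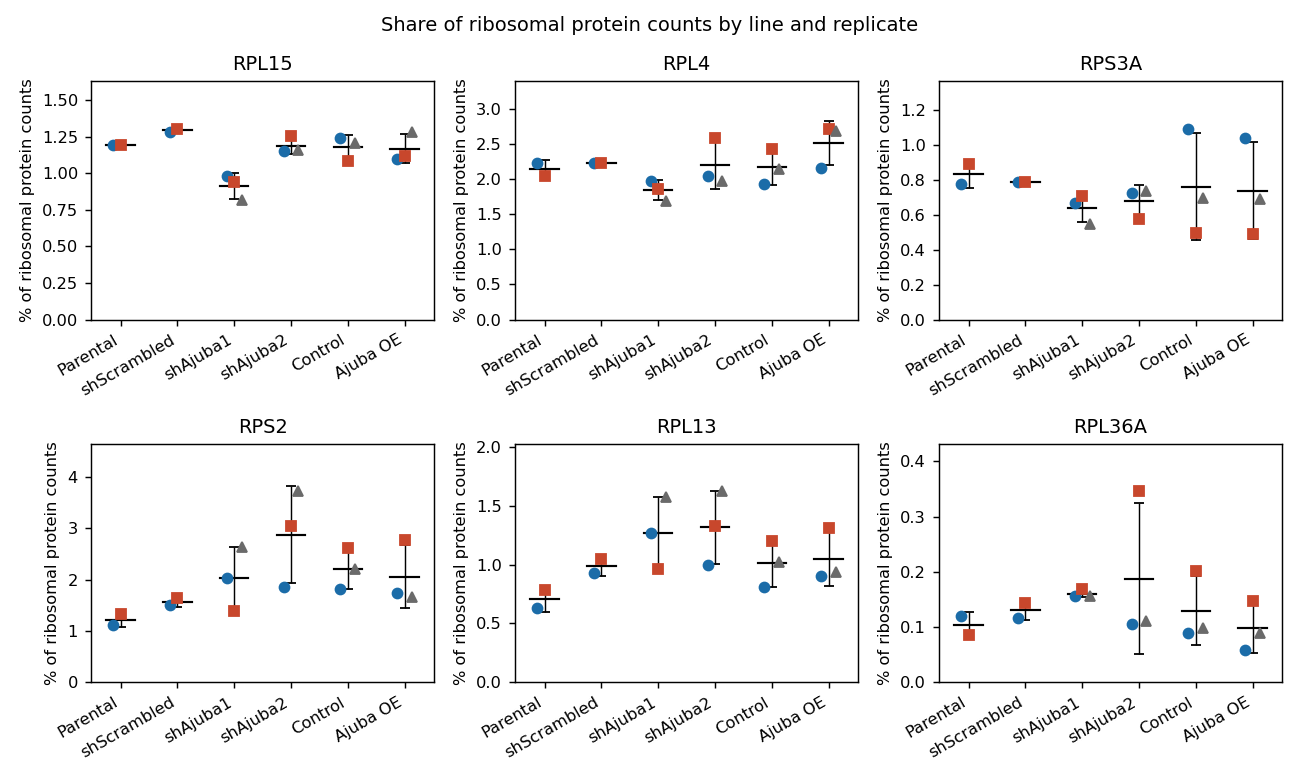
Share of the summed ribosomal protein counts (%, vertical axes, each from 0) of RPL15, RPL4, RPS3A, RPS2, RPL13 and RPL36A in the 16 samples by line, with the line mean and SD in black (circles replicate 1, squares replicate 2, triangles replicate 3). RPL15 lies below 1% in the 3 shAjuba1 samples alone, and RPS2 runs from 1.12% in Parental to 3.72% in shAjuba2.

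On the same scale no member was called by edgeR in shAjuba2 (0.913% of all genes) or in Ajuba OE (0.795%), none had an unadjusted p under 0.05 and DESeq2 called 0 in both. With replicate 2 left out RPS2 was higher in shAjuba2 (0.90, SE 0.25, adjusted p = 0.0147), where 3.8% of all genes were called. Over the 6 lines no member was called by edgeR or DESeq2 (8.94% of all genes in edgeR), and RPS2 alone had an unadjusted p under 0.05 (adjusted p = 0.159). With replicate 2 of every line left out RPS2 (adjusted p = 4.02e-06), RPL13 (adjusted p = 3.4e-05) and RPL36A (adjusted p = 0.000305) differed, where 37.2% of all genes did.

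The genes that build the ribosome gave other counts than its proteins. Of 32 ribosome assembly factors 22 rose and 1 fell in shAjuba1 against shScrambled (median 0.33), where 18.2% of all genes rose and 20.2% fell, with RRP9 (0.70, SE 0.09, adjusted p = 6.21e-05), which binds U3 snoRNA, DKC1 (0.60, SE 0.08, adjusted p = 0.000103), the pseudouridine synthase, and TSR1 (0.53, SE 0.08, adjusted p = 0.000212), a 40S maturation factor, among those that rose. The one that fell was GAR1 (-1.05, SE 0.09, adjusted p = 1.31e-06), a partner of DKC1 in H/ACA particles. Of 14 RNA polymerase I genes 5 rose and 2 fell, and of 14 snoRNA host transcripts 9 rose and none fell. In Ajuba OE against Control 3 assembly factors rose, where 2.39% of all genes did. They were RRP9 (0.52, SE 0.09, adjusted p = 0.0206), NOLC1 (0.50, SE 0.10, adjusted p = 0.0306) and RRP12 (0.38, SE 0.08, adjusted p = 0.0404). In shAjuba2 none of the 32 passed, where 7.63% of all genes did. In shScrambled against Parental 21 of the 32 fell, where 15.6% of all genes did.

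Of the TOP mRNAs that encode no ribosomal protein, 2 rose and 2 fell among 15 tested in shAjuba1 (26.7% called, against 38.4% of all genes). TPT1, the translationally controlled tumour protein, fell (-0.69, SE 0.10, adjusted p = 0.000142), while the elongation factor EEF1A1 (-0.06, SE 0.10, adjusted p = 0.656), EEF2 (0.16, SE 0.10, adjusted p = 0.215), the poly(A)-binding protein PABPC1 (-0.16, SE 0.08, adjusted p = 0.159) and RACK1 (0.17, SE 0.09, adjusted p = 0.14) did not pass. Of 22 genes of the S6 kinase and mTOR pathway 6 rose and 3 fell (40.9% called, near the share of all genes). LARP1, which binds TOP mRNAs, rose (0.32, SE 0.10, adjusted p = 0.0173), and RPS6KB1, the S6 kinase, fell (-0.26, SE 0.09, adjusted p = 0.0378). In shAjuba2 and in Ajuba OE no gene of either list passed, where 7.63% and 5.43% of all genes did.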

How the data were processed

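Total RNA of 16 SW480 samples in 6 lines was sequenced with 50 bp paired ends after stranded poly(A) library preparation. The authors aligned the reads to GRCh38 with HISAT2 and deposited raw counts of reads per gene over exons from featureCounts. Tool versions, annotation release, strand setting and the handling of reads with several matches are not given in the sources used here. RPM is a count divided by the total of its column times 1000000. Each comparison was fitted on all genes of its own samples that passed edgeR's filterByExpr, with TMM scaling and the quasi-likelihood test (edgeR 4.0.16, R 4.3.3), and Benjamini-Hochberg adjusted p under 0.05 was called. With a replicate left out, a group of 1 sample is assumed to vary like the others in its fit. Fits relative to the family used the sum of its counts as library size. DESeq2 1.42.0 and the other alternatives stand in the closing section, tables were made with Python 3.11.15 and pandas 2.3.3, and scripts were tested on simulated data. Depth was 30132396 to 69684675 counts a library, so sampling noise was small beside the replicate spread.

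Members and gene lists were chosen with earlier results of these data known. Named were AJUBA, RPS6, the 4 highest and 4 lowest members of each comparison, the leading members relative to the family total, the extremes of level per kilobase, members with known roles, all paralogs, up to 4 genes of each other list per comparison and a set of known TOP mRNAs and pathway genes. RPL28, RPS23, RPL23 in shAjuba2 and RPL15, RPL4 and RPS14 outside their leading comparison were chosen after their values were seen. The main fits did not pair samples by replicate number, and the labels do not say whether a shared number marks a shared batch. Gene positions came from GENCODE and promoters from RefSeq by symbol. Protein sequences were not used here. The values of a few members are not reported here.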

Additional observations from a re-analysis of the deposited data

How the results depend on the processing

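The sign of the family median was kept under the alternatives run, except in shAjuba1 without replicate 1 of shScrambled (0.07) and in Ajuba OE against Parental. The count of members called was 11 in shAjuba1 (38.4% of all genes). It was 0 with all 16 samples in 1 fit (23.2%) and 63 against Parental (38.1%). In shAjuba2 it was 0 (7.63%), 1 by DESeq2 (11.1%), 8 without the filter on low counts (7.85%) and 1 against Parental (8.14%). In Ajuba OE it was 0 (5.43%), 1 with all samples (10.1%) and 2 without the filter (3.22%), and the median against Parental was -0.17. In shScrambled against Parental it was 53 (30.7%) and 0 with all samples (7.19%). In Control against Parental it was 0 (0.37%), 3 by DESeq2 (2.56%) and 65 without the filter (4.81%). In shAjuba1 against shAjuba2 it was 0 (19.6%), 1 by DESeq2 (21.35%) and 19 without the filter (12.5%). Over the 6 lines it was 4 (45.7%), 2 by library size alone (46.6%) and 75 without the filter (28.8%). Relative to the family total, shAjuba1 had 6 (36.3%), 3 with the median member as reference (34.2%) and 10 against Parental (52.2%). On that scale shAjuba2 had 0 (0.913%), and the 6 lines had 0 (8.94%) and 1 without the filter (13.9%). RPS6 was at -0.46 in shAjuba1 against Parental, past the threshold (adjusted p = 0.00806), and at -0.0736 in Ajuba OE against Parental. The fits with replicate 2 of every line left out, given in the sections above, hold all 6 lines. The cause was not tested. Without the mitochondrially encoded mRNAs in the totals the family summed to 41400 RPM in Parental, 35930 RPM for shScrambled, 34480 RPM for shAjuba1 and 27290 RPM for shAjuba2, and to 29720 RPM in Control and 36960 RPM for Ajuba OE.

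With replicate number as a block, 61 members were called in shAjuba2 (24.0% of all genes) and 70 in Ajuba OE (24.3%). It was 8 in Control against Parental (1.47%) and 26 over the 6 lines (51.1%). Relative to the family total it was 3 in shAjuba1 (32.9%) and 2 in Ajuba OE (53.1%). RPS6 then passed the threshold, at -1.09 in shAjuba2 (adjusted p = 0.0207) and 0.35 in Ajuba OE (adjusted p = 0.00236). shScrambled and Parental have no replicate 3, so in pairwise fits against them the block sets replicate 3 of the other line aside. The shAjuba2 family median of -0.73 in this fit and its RPS6 value thus rest on replicates 1 and 2. Deviations of same-numbered samples correlated at 0.0998, 0.505 and -0.0494 in Ajuba OE and Control and at -0.131 to 0.188 in the other comparisons, and no labels say that the numbers mark a shared day.

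Leaving out each replicate in turn gave 1 to 17 members called with a median of -0.14 to 0.07 in shAjuba1 against shScrambled, 0 to 7 members called with a median of -0.67 to -0.13 in shAjuba2 against shScrambled, 0 to 1 members called with a median of 0.12 to 0.59 in Ajuba OE against Control, 12 to 60 members called with a median of -0.39 to -0.20 in shScrambled against Parental, 0 to 21 members called with a median of -0.68 to -0.27 in Control against Parental, and 0 to 17 members called with a median of 0.07 to 0.60 in shAjuba1 against shAjuba2. Relative to the family total, fits against shScrambled without 1 shAjuba1 replicate called 4 to 7 members (27.7% to 35.1% of all genes). Those without 1 shAjuba2 replicate called 0 to 1 (0.105% to 11.9%). Leaving out any replicate of Ajuba OE or Control gave 0 (0.489% to 2.35%). With each replicate left out in turn, RPS6 was at -0.148 to 0.0218 in shAjuba1, -0.83 to -0.14 in shAjuba2 and -0.11 to 0.76 in Ajuba OE. It was above 0 in shAjuba1 without replicate 1 of shScrambled and below 0 in Ajuba OE without its replicate 1.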

Other observations

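The paralogs of the family, left out of the 77 genes by their names, gave other values. Of 8 listed, RPL10L and RPL39L were not tested because of low counts. Of the 6 others 1 rose and 2 fell in shAjuba1 against shScrambled (50% called, against 38.4% of all genes). RPL7L1 rose (0.39, SE 0.08, adjusted p = 0.00194), and RPL22L1 (-0.69, SE 0.11, adjusted p = 0.000325) and RPS27L (-0.53, SE 0.10, adjusted p = 0.00123), a p53 target, fell. The parent gene RPL22 had a log2 fold change of -0.11 (SE 0.09, adjusted p = 0.334). RPL36AL (-0.11, SE 0.08), RPL26L1 (-0.07, SE 0.10) and RPL3L (0.67, SE 0.32) did not pass. In shAjuba2 and in Ajuba OE none of the 6 passed, where 7.63% and 5.43% of all genes did. In shScrambled against Parental 3 fell, where 15.6% of all genes did. They were RPL26L1 (-0.57, SE 0.10, adjusted p = 0.000206), RPL7L1 (-0.38, SE 0.08, adjusted p = 0.000736) and RPL3L (-1.07, SE 0.32, adjusted p = 0.0127).

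Pseudogenes of the ribosomal protein genes summed to 291.7 to 352.3 RPM, a narrower range than that of the 77 genes. Their median shift in replicate 2 was 0.23 for shAjuba2, -0.12 for Control and -0.06 for Ajuba OE. In shAjuba1 16 of 153 tested fell and 1 rose (11.1% called, against 38.4% of all genes). Reads of near-identical copies can be assigned to either gene, so single pseudogenes are uncertain.

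The mitochondrial ribosomal proteins are encoded in the nucleus and serve another ribosome. In shScrambled against Parental 44 of 78 genes fell and 1 rose, where 15.6% of all genes fell. In shAjuba1 against shScrambled 13 rose and 5 fell (23.1% called, against 38.4% of all genes). Of the nuclear-encoded subunits of the respiratory chain and ATP synthase, 22 of 76 fell and 2 rose in shAjuba1 (31.6% called, against 38.4% of all genes). Of 37 proteasome subunits 26 fell in shScrambled against Parental, where 15.6% of all genes did. In shAjuba1 6 of them rose and 3 fell (24.3% called, against 38.4% of all genes).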
